A study of Mus musculus with 4 samples.

Results

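The protein-coding genes of the mouse Hox clusters were examined in ribosome footprints of primary myoblasts. Members were chosen by name and gene class alone, as genes of the table annotated protein-coding whose symbol is Hox, a cluster letter from a to d and a paralog number, which gave 39 of 55573 genes and 39 of the 21900 protein-coding genes. They comprised 11 Hoxa, 10 Hoxb, 9 Hoxc and 9 Hoxd genes.

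Ribosome profiling (Ribo-seq) sequences the mRNA fragments that ribosomes shield from nuclease, and it was performed here on 4 libraries, 2 of the genotype WT and 2 of the genotype KO. The cells were primary myoblasts, which descend from muscle stem cells, taken from hind-limb muscle of 3-week-old mice, grown in DMEM with fetal bovine serum and FGF and labelled as day 2 of proliferation; cycloheximide was added before lysis in every group, for 1 min in one description and 10 min in another. In the KO mice a floxed eIF5A gene was removed by tamoxifen through a Cre recombinase expressed from the Pax7 locus, so cells that never expressed Pax7 keep the gene. The control is given in one place as the Pax7-CreERT2/+ genotype and in another as Pax7+/+ with eIF5A f/f, and the replicates are described as duplicate experiments without saying whether they came from separate animals or cultures; the p-values therefore measure only the spread between these libraries, which may be technical. eIF5A is a translation factor known for helping ribosomes through stretches that are hard to elongate, among them runs of proline.

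Hox genes encode homeodomain transcription factors that give cells their position along the body axis and along the limb. They lie in 4 clusters in which gene order follows position: low-numbered paralogs are used in the head and neck, middle ones in the trunk, and high-numbered ones in the lumbar and tail regions and in the outer limb. Adult muscle stem cells and connective tissue cells are known to keep part of the Hox pattern of the place they came from. The proteins bind DNA together with Pbx and Meis cofactors, and their genes are kept silent by Polycomb and kept active by Trithorax complexes.

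Read counts per gene were recovered from the deposited RPKM values (reads per kilobase of gene length, scaled by the authors to a common library size). The libraries held 648386 and 642429 gene-assigned reads in WT against 704006 and 650210 in the KO-labelled libraries, of which 41.5%, 33.9%, 65.4% and 59.2% lay on protein-coding genes. This share was higher in both KO-labelled libraries. The targeted gene, Eif5a, had 50 and 73 reads in WT against 130 and 114 in the KO-labelled libraries, with a log2 difference of 0.32 ± 0.48 (SE, limma, adjusted p = 0.839), or -0.12 without WT replicate 1, so the 2 sets of libraries were not separated by it in the labelled direction. The term KO-labelled is therefore kept throughout, and every direction below refers to those labels. Of the summed RPKM of marker genes, the 10 myoblast markers had 325 and 290 in WT against 206 and 229 in the KO-labelled libraries, with Sdc4, Myod1 and Itga7 holding the most reads. The 12 fibroblast markers had 629 and 425 against 1073 and 505 (most reads: Dcn, Pdgfra and Col1a2, with Tcf21 at 0), and the 8 endothelial markers 255 and 390 against 354 and 444 (Cdh5, Cldn5 and Egfl7). The 8 immune markers had 30.9 and 54.4 against 35.0 and 27.8 (Cd68, Lyz2 and Adgre1, with Cd3e and Itgam at 0), and the 7 Schwann and neural markers 66.3 and 21.6 against 39.5 and 30.1 (Ngfr and Sox10 among those with the most reads). The cultures thus held transcripts of several cell types, many of which use Hox genes, and the part of each in the Hox values was not tested.

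Sparse footprints on the Hox genes were concentrated in the middle of the clusters. The 39 genes held 203 reads in all 4 libraries together, 67 and 26 in WT against 52 and 58 in the KO-labelled libraries. A read was found on 27 members, 12 members were at 0 in every library, and no member reached more than 10 reads in any library. At 0 were 30.8% of the members and 33.7% of all protein-coding genes, but only 20.5% of the members had at least 10 reads in total against 47.1% of protein-coding genes. A floor of 3 reads, below which a level cannot be told from 0, equals an RPKM of 2.49, 3.18, 1.65 and 1.86 for a gene of 2 kb in WT 1, WT 2, KO 1 and KO 2 (group and replicate), the order used below for sets of 4 values. Of the 156 values of a member in a library, 23 lay above that floor, and Hoxd8 was the only member above it in all 4 libraries. These reads measure mRNA abundance and ribosome occupancy together, and in a mixed culture fewer cells of a type and less RNA per cell cannot be told apart.

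By cluster, Hoxc carried the most reads, 71 on 7 of its 9 genes. Its genes lie on chromosome 15 from 102921103 to 103036852 on the plus strand (GRCm38, the build of the table). Hoxa had 48 reads on 7 of 11 genes on chromosome 6 from 52155590 to 52260880 on the minus strand. Hoxd had 45 reads on 4 of 9 genes on chromosome 2 from 74668310 to 74765142 on the plus strand, nearly all on Hoxd8, Hoxd9 and Hoxd4. Hoxb had 39 reads spread over 9 of 10 genes on chromosome 11 from 96194316 to 96368256 on the plus strand.

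By paralog group, that is genes of the same number in the 4 clusters, groups 6 to 10 held 159 of the 203 reads (78.3%), and each of the 15 genes in these groups had at least 1 read. Group 8 had 43 reads, group 10 had 35, group 9 had 32, group 6 had 27 and group 7 had 22. Group 4, used at neck level, had 18 reads, all but 1 on Hoxd4 and Hoxc4, and group 5 had 12. The hindbrain and head-and-neck groups 1 to 3 had 6 reads over 8 genes. Group 11, known for the forearm and lower leg, had 8 reads, 7 of them on Hoxc11. Groups 12 and 13, the latter used in the hand and foot, had none on their 6 genes.

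**Figure D1:**
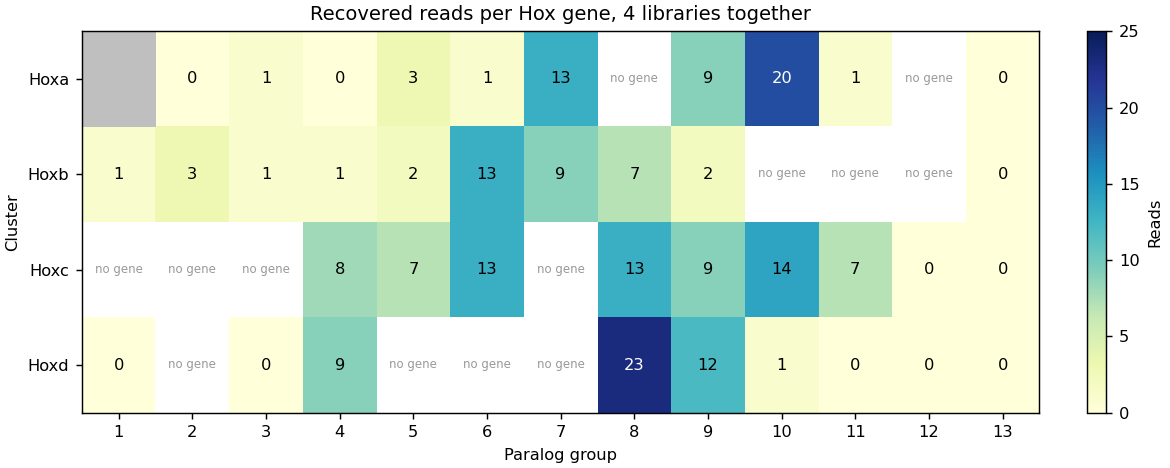
Recovered reads of each Hox gene, summed over the 4 libraries, with the cluster on the vertical axis and the paralog group on the horizontal axis; cells marked "no gene" have no member in the table, and the grey cell is not reported. The darkest cells are Hoxd8 with 23 reads and Hoxa10 with 20, and groups 12 and 13 are at 0.

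The 12 members at 0 in all libraries included every gene of groups 12 and 13 (Hoxa13, Hoxb13, Hoxc12, Hoxc13, Hoxd12 and Hoxd13), and Hoxd1, Hoxd3 and Hoxd11 of the Hoxd cluster. With 3 reads over the 4 libraries as the limit that a count of 0 allows, the mean levels of the 12 could be up to 0.255 to 1.04 RPKM depending on gene length. This limit does not hold for Hoxd3, whose coding sequence is wholly shared with another annotated gene. These intervals and floors cover counting error only, since the reads carry no molecular identifiers. A total of 7 members had 1 read each. These reads were in WT replicate 1 for Hoxa3, Hoxa6, Hoxa11 and Hoxb4, in WT replicate 2 for Hoxd10, and in replicate 2 of the KO-labelled libraries for Hoxb1 and Hoxb3. Hoxb5 and Hoxb9 had 2 reads each, 1 in WT replicate 1 and 1 in KO-labelled replicate 1. Hoxa5, which acts in the lung and shoulder girdle, had 3 reads, all in WT replicate 1, and Hoxb2 had 0, 2, 0 and 1.

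The members with reads in the middle range did not separate by group in any uniform way. Hoxd4 had 4, 0, 4 and 1 reads, Hoxb7 had 1, 3, 4 and 1, Hoxb8 had 3, 0, 4 and 0, Hoxc5 had 2, 0, 3 and 2, and Hoxc11 had 0, 2, 3 and 2. Hoxa9 and Hoxc9 of group 9 and Hoxc4 had their highest count in WT replicate 1: Hoxc9 had 7, 1, 1 and 0 reads, Hoxa9, a gene also known from blood stem cells, had 5, 1, 2 and 1, and Hoxc4 had 4, 2, 2 and 0. In Hoxc4 and Hoxc9 both KO-labelled counts lay at or below both WT counts, by as little as 0 reads. The reads on Hoxd4 cannot be placed with certainty, because 82.7% of the 30-base stretches of its coding sequence also belong to another annotated gene, Gm28230, which itself had 0 reads. The same overlap covers 100% of the coding stretches of Hoxd3.

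The 8 members with at least 10 reads held 121 of the 203 reads (59.6%). Hoxd8 (ENSMUSG00000027102, chr2:74704615-74707933, plus strand), a gene of trunk-level patterning, had the highest mean level over the 4 libraries, 3.25 RPKM, which ranks above 71.2% of protein-coding genes. Hoxc10 (chr15:102966796-102971893, plus strand), used in the lumbar spinal cord and hind limb, followed with 2.49 RPKM, Hoxb6 with 2.14, Hoxd9 with 2.11, Hoxa10 with 1.94, Hoxc6 with 1.89, Hoxa7 with 1.87 and Hoxc8 with 1.54. Hoxb7 reached 2.21 RPKM from only 9 reads on a short gene. Neighbours in this order, from Hoxd8 down to Hoxc8, differed by less than their spread over the 4 libraries. RPKM here divides by the length of all exons, of which the coding sequence was 14.6% in Hoxa9 and a median of 34.2% over the members. Per kilobase of coding sequence, the total reads were 26.5 for Hoxd8, 19.3 for Hoxb6, 18.9 for Hoxa7, 18.4 for Hoxc6, 17.9 for Hoxc8 and 16.0 for Hoxa10, and Hoxc10 moved down to 13.6. Hoxd8 led on both scales over the 4 libraries together. In the KO-labelled libraries its mean of 1.93 RPKM was below those of Hoxb6 (3.43), Hoxc10 (3.43), Hoxa10 (3.05) and Hoxc8 (2.11).

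In places the homeodomain is so alike between some members that a short footprint may match several of them. The 7 codons at the core of its DNA-contacting helix are shown for 6 of the 8 members with at least 10 reads, to show how few bases tell them apart. They were found as the in-frame motif AANATNTGGTTNCANAANNGN on the coding strand, which 33 of the 39 members and 0.266% of 21794 protein-coding genes with a coding sequence hold. The bases in capitals differ from the most common base of the 33 members at that position.
Hoxb6: aagatTtggttTcagaaccgg
Hoxa7: aagatctggttccagaaTcgg
Hoxc8: aagatTtggttccagaaTcgA
Hoxd8: aaAatctggttccagaacAgg
Hoxa10: aaAatctggttTcagaaTcgC
Hoxc10: aaAatctggttTcaAaaTcgC

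Across whole coding sequences the sharing was smaller, and the 21 bases shown are shorter than the 30-base stretches used here. Hoxa10, Hoxc6 and Hoxc8 shared 0% of such stretches with another Hox member, Hoxd8 0.36% and Hoxa7 3.04%. Of the 39 members, 14 had no 30-base stretch in common with any other gene, 19 shared at least 1 such stretch with another Hox member, and 6 shared more than 5% with any other gene. Among the 8 members with at least 10 reads, only Hoxc10 was above 5%, with 13.9% of its stretches also annotated to Hoxc5, whose gene model begins inside Hoxc10. An exon on the opposite strand covered coding bases of 5 members, from 12.4% in Hoxb5 to 75.5% in Hoxa11, where the antisense gene is Hoxa11os. How the authors counted reads with several matches, and whether strand was used, is not given in the sources used here, so the few reads of these members are uncertain.

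Taken over all 39 genes, the Hox share of protein-coding reads was high in WT replicate 1 and alike in the other 3 libraries. It was 24.9 per 100000 protein-coding reads in WT replicate 1 (95% Wilson interval, 19.6 to 31.6) and 11.9 in WT replicate 2 (8.15 to 17.5). The KO-labelled libraries had 11.3 (8.62 to 14.8) and 15.1 (11.7 to 19.5), and their intervals overlap that of WT replicate 2 but not that of WT replicate 1. Summed RPKM were 43.5, 23.2, 22.8 and 29.5, or 33.3 ± 14.4 in WT against 26.1 ± 4.72 in the KO-labelled libraries (SD, n = 2 each). The log2 difference of these means was -0.35. This difference was 0.17 without WT replicate 1 and 0.20 when levels were scaled to all gene reads, so its direction rested on that library and on the scaling; an exact permutation test of 2 against 2 libraries has 3 distinct splits and cannot reach a p of 0.05.

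**Figure D2:**
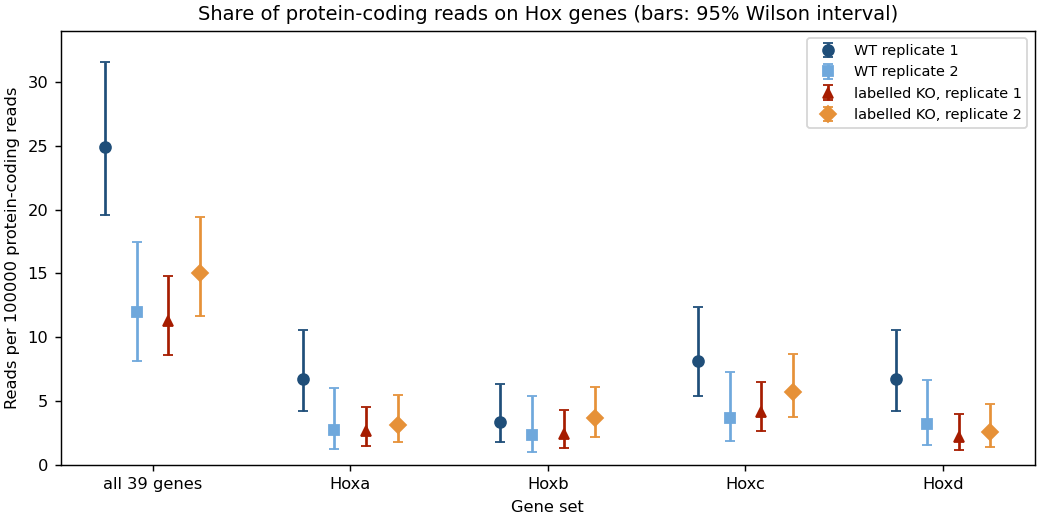
Recovered reads per 100000 protein-coding reads (vertical axis) for all 39 Hox genes and for each cluster (horizontal axis), 1 point per library with its 95% Wilson interval, which covers counting error only. WT replicate 1 stands at 24.9 for all genes, and the other 3 libraries lie between 11.3 and 15.1.

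The clusters did not share a direction. Hoxd had 18 and 7 reads in WT against 10 and 10 in the KO-labelled libraries, with summed RPKM of 11.4 and 6.25 against 4.14 and 4.99. Both KO-labelled libraries lay below both WT libraries in RPKM, with a log2 difference of -0.95 that became -0.45 without WT replicate 1. With levels scaled to all gene reads the difference was -0.40 and the libraries overlapped, at 10.6 and 4.58 against 5.33 and 6.20. Hoxa had summed RPKM of 10.9 and 3.98 against 3.86 and 4.49, a log2 difference of -0.84 that was 0.068 without WT replicate 1 and -0.31 with levels scaled to all reads. Hoxc had 14.6 and 7.60 against 8.87 and 11.7 (log2 difference -0.11, or 0.44 without WT replicate 1 and 0.44 with levels scaled to all reads). Hoxb had 6.54 and 5.34 against 5.92 and 8.29 (0.26, or -0.0059 without KO-labelled replicate 2, 0.12 without WT replicate 2 and 0.84 with levels scaled to all reads). In Hoxa, Hoxb and Hoxc the groups overlapped in RPKM, and scaled to all gene reads Hoxb did not.

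Along the paralog numbers, the neighbouring groups 9 and 10 stood on opposite sides. Group 9 (Hoxa9, Hoxb9, Hoxc9 and Hoxd9, of which Hoxc9 is known from thoracic motor neurons) had 17 and 4 reads in WT against 6 and 5 in the KO-labelled libraries. Its summed RPKM were 10.0 and 3.24 against 2.31 and 2.54, a log2 difference of -1.45, or -0.42 without WT replicate 1. Group 10 (Hoxa10, Hoxc10 and Hoxd10, which specify rib-free lumbar segments and the thigh) had 3 and 4 reads in WT against 12 and 16 in the KO-labelled libraries. Its summed RPKM were 1.88 and 4.04 against 5.01 and 7.95, a log2 difference of 1.13 that ranged from 0.68 to 1.78 when each library was left out. In neither group did the 2 sets of libraries overlap in RPKM, as was so for 42.3% of all single genes with at least 10 reads. With levels scaled to all gene reads group 9 overlapped, at 9.31 and 2.38 against 2.98 and 3.16, while group 10 did not, at 1.75 and 2.96 against 6.45 and 9.87. Both groups were singled out after their values were seen, so no test was applied to them. As a share of each library's Hox reads, groups 10 and 11 together made up 5.97% and 23.1% in WT and 28.8% and 31.0% in the KO-labelled libraries. Group 7 also did not overlap in RPKM, with sums of 3.96 and 7.08 against 3.62 and 1.66, but did when scaled to all gene reads. Groups 4, 5, 6, 8 and 11 overlapped.

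**Figure D3:**
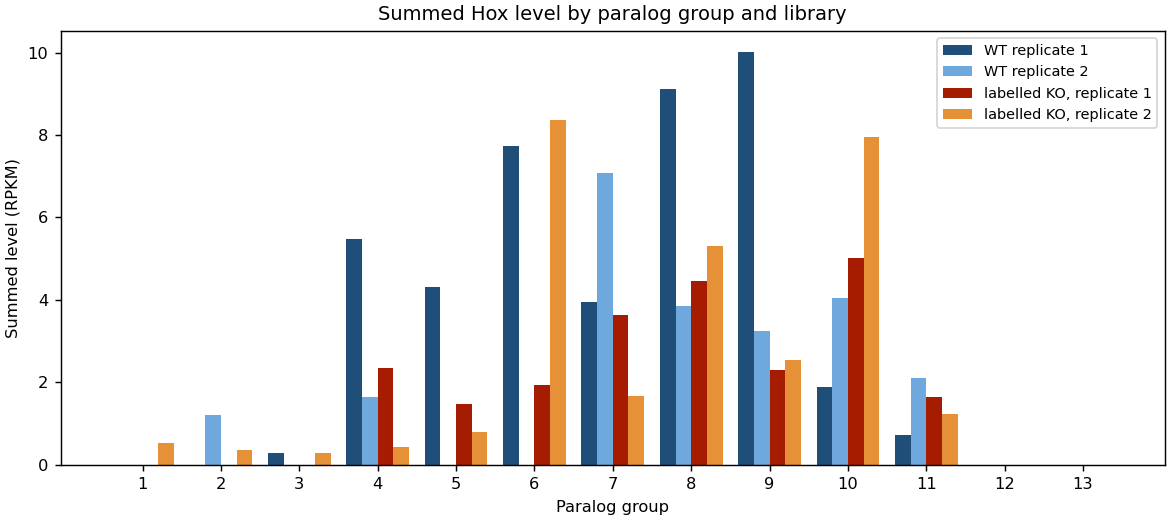
Summed RPKM (vertical axis) of the Hox genes of each paralog group (horizontal axis), 1 bar per library. Group 9 is highest in WT replicate 1 at 10.0, group 10 is highest in KO-labelled replicate 2 at 7.95, and groups 12 and 13 are at 0.

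None of the 13 Hox genes that reached a mean RPKM of 1 passed the test between the 2 sets of libraries. The question put by this comparison is which mRNAs lose or gain footprints when eIF5A is deleted. Of these 13 members, 7 had a positive and 6 a negative log2 difference of log2(RPKM + 1), from -1.45 to 1.15, with a median of 0.06 against 0.00 over the 11363 genes tested and 0.05 over the protein-coding ones. In limma with Benjamini-Hochberg adjustment over all 11363 genes, 0 members had an adjusted p under 0.05 (adjusted p from 0.675 to 0.987), where 0.106% of all genes did. At an unadjusted p under 0.05 the count was also 0, where 7.32% of all genes and 5.97% of protein-coding genes passed, and limma-voom on the recovered reads called 1 member, Hoxc9, at that unadjusted level and 0 after adjustment. Hoxc6 and Hoxd4 had a positive difference on the log scale but a lower mean RPKM in the KO-labelled libraries, so that by mean RPKM 5 of the 13 were higher and 8 lower. A group mean under 1 RPKM was found in 7 of the 13, in WT for Hoxa10, Hoxb6 and Hoxc8 and in the KO-labelled libraries for Hoxa7, Hoxc4, Hoxc9 and Hoxd4. These entered the test only through the group where they were higher, so the split, range and median of the 13 describe the genes that passed the filter and not the 39. The other 26 members were not tested because their level was too low.

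Hoxa10 had 2 and 1 reads in WT against 8 and 9 in the KO-labelled libraries. Both KO-labelled libraries lay above both WT libraries. Its level was 0.832 ± 0.258 RPKM in WT against 3.05 ± 0.502 in KO-labelled ones (SD, n = 2 each), a log2 difference of 1.15 ± 0.49 (SE) with an adjusted p of 0.675 and an unadjusted p of 0.0606 in limma, having passed the filter through the KO-labelled libraries. Relative to the library sizes implied by the RPKM values, the ratio of its counts was 3.55 with an exact 95% counting interval of 1.03 to 18.9. Hoxc10, its paralog in Hoxc, had 1 and 2 reads against 4 and 7. Its groups did not overlap either, at 1.55 ± 0.958 against 3.43 ± 1.58 RPKM, though they did when scaled to protein-coding reads, and its log2 difference was 0.80 ± 0.53 (limma, adjusted p = 0.697), or 0.41 without WT replicate 1, 1.20 without WT replicate 2 and 0.43 without KO-labelled replicate 2. The third gene of the group, Hoxd10, had 1 read in all.

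Hoxd8 had 10 and 4 reads in WT against 4 and 5 in the KO-labelled libraries, or 6.05 and 3.09 against 1.61 and 2.26 RPKM. The KO-labelled libraries lay below both WT libraries in RPKM, but with levels scaled to all gene reads the groups overlapped, at 5.62 and 2.27 against 2.07 and 2.80. The log2 difference was -0.88 ± 0.45 (limma, adjusted p = 0.680), or -0.49 without WT replicate 1. Relative to the library sizes implied by the RPKM values, the ratio of counts was 0.403 (exact 95% counting interval 0.154 to 0.999). Hoxa7, a gene of the neck-to-chest boundary, had 5 and 4 reads in WT against 2 and 2 in the KO-labelled libraries. Its level was 2.92 ± 0.048 against 0.814 ± 0.067 RPKM, and its groups did not overlap. The log2 difference was -1.11 ± 0.49 (limma, adjusted p = 0.675), from counts of 5 or fewer in a gene that passed the filter through WT, with a ratio of counts of 0.278 (0.063 to 0.997). These intervals cover counting error only, not the spread between libraries, and they rest on the RPKM scaling.

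The other 4 of the 8 members with at least 10 reads overlapped between the sets of libraries. Hoxb6 had 2, 0, 1 and 10 reads, so that 1 KO-labelled library held most of them, and its log2 difference of 1.04 ± 0.95 became -0.071 without that library. Hoxc6, a chest-level gene, had 6, 0, 3 and 4 reads and a log2 difference of 0.25 ± 0.87, or -0.93 without WT replicate 2. Hoxc8, which patterns motor neurons of the forelimb, had 2, 1, 3 and 7 reads and a log2 difference of 0.61 ± 0.61, or 0.15 without KO-labelled replicate 2 and 1.06 without KO-labelled replicate 1. Hoxd9 had 4, 2, 2 and 4 reads and a log2 difference of -0.43 ± 0.51, or -0.078 without KO-labelled replicate 1. In total, the groups did not overlap in 4 of these 8 members, 2 higher and 2 lower, where 42.3% of all 10930 genes with at least 10 reads did not overlap (21.6% higher and 20.7% lower). Among genes with 10 to 25 reads the share was 38.2%, so the members' count is near the background. Scaled to all gene reads the count was also 4, with Hoxc8 in place of Hoxd8, and only Hoxa10 and Hoxa7 did not overlap under any of the 3 scalings tried.

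**Figure D4:**
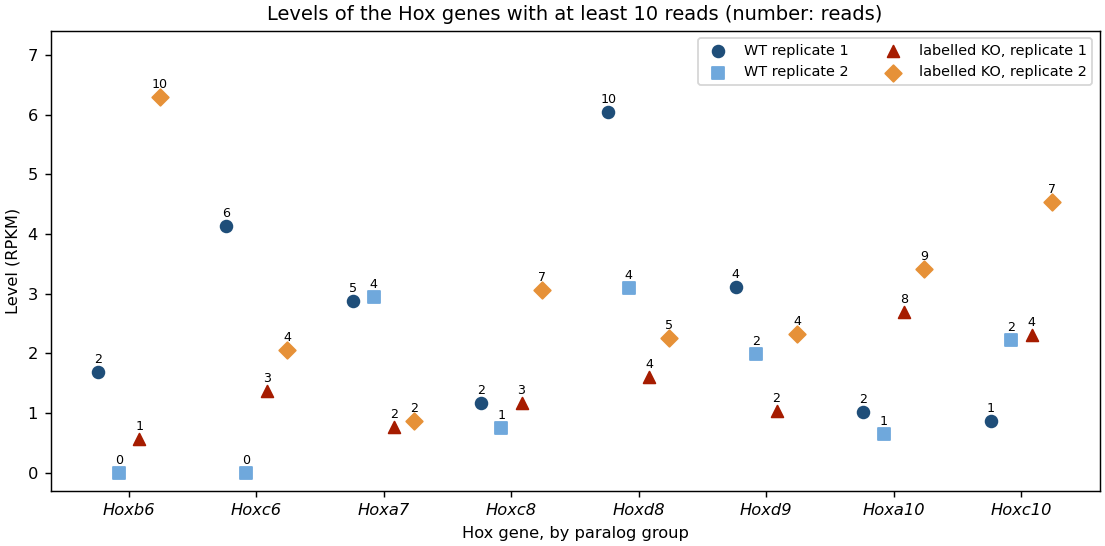
Level in RPKM (vertical axis) of the 8 Hox genes with at least 10 reads (horizontal axis, by paralog group), 1 point per library with its read count beside it. Hoxa10 and Hoxc10 have both KO-labelled libraries above both WT libraries, and Hoxa7 and Hoxd8 have them below; Hoxd8 overlaps when scaled to all gene reads and Hoxc10 when scaled to protein-coding reads.

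**Figure D5:**
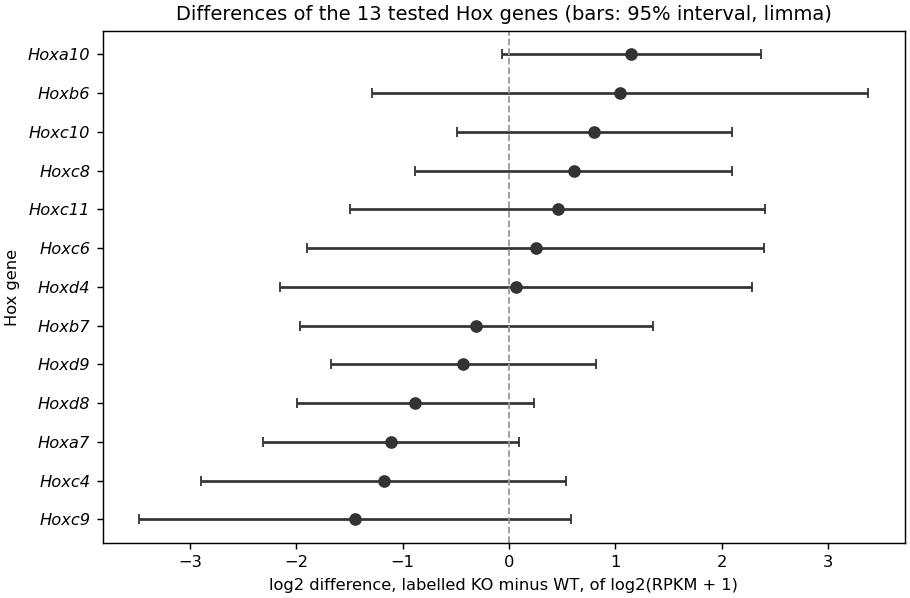
Log2 difference, KO-labelled libraries minus WT, of log2(RPKM + 1) (horizontal axis) for the 13 tested Hox genes (vertical axis), with 95% intervals from limma. The values run from -1.45 to 1.15, and each interval includes 0.

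Because eIF5A is known for its role at prolines, the proline runs of the members were read from the coding sequences. Runs of at least 3 proline codons occurred in 18 of the 39 members (46.2%), against 19.9% of protein-coding genes, and runs of at least 4 in 7 members (17.9% against 6.38%). The longest was in Hoxb4, with 14 codons, followed by Hoxd8 with 9, Hoxd3 with 7 and Hoxa10 with 6. The run of Hoxb4 is shown as the longest, that of Hoxa10 because the gene was among those with the most footprints, and that of Hoxc4 as a further tested member. They lie in coding exons at chr11:96318986-96319027 (plus strand), chr6:52234476-52234493 (minus) and chr15:103034882-103034896 (plus) of GRCm38, written along the coding strand with the proline codons in capitals and 6 bases on each side.
Hoxb4: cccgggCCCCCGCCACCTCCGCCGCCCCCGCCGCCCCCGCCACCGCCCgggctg
Hoxa10: cagcagCCGCCGCCGCCCCCGCCGcagcca
Hoxc4: ctgtacCCACCACCGCCTCCGcgccct

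Members with and without these runs held about equal reads in total. The 18 members with a run of at least 3 proline codons held 103 reads and the other 21 held 100. Of the tested members, 3 of the 6 with a run had a positive log2 difference, with a median of -0.18. Without a run 4 of the 7 did, with a median of 0.25. Hoxa10, Hoxb6, Hoxc4 and Hoxd4 of the first set passed the filter only through the group where they were higher. The same holds for Hoxa7, Hoxc8 and Hoxc9 of the second, so no conclusion on direction is drawn. Hoxd8, with 9 proline codons in a row, had lower values in the KO-labelled libraries, and Hoxa10, with 6, had higher ones. The table gives 1 value per gene, so footprints at a run cannot be told from those elsewhere in the gene.

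The members also share a base composition that moved with the libraries. Coding GC content was 61.4% in the median member against 51.9% over all protein-coding genes, and 38 of the 39 members were above the latter. The tested members ranged from 54.3% to 67.5%. The 4172 tested protein-coding genes in that range had a median log2 difference of -0.21, with 62.8% below 0. The median was 0.05 over all tested protein-coding genes. Of all genes tested, of any class, 50.0% were below 0. With the trend on GC content and length removed, Hoxa10 had a log2 difference of 1.66 and an adjusted p of 0.662 in limma, and Hoxd9 changed direction, from -0.43 to 0.19.

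Nearly all reads inside the Hox clusters lay on microRNA genes rather than on protein-coding ones. Mir10b, in the intron span shared by Hoxd3 and Hoxd4 on chromosome 2, had 3317, 24872, 1367 and 1957 reads, and Mir10a, in the Hoxb cluster on chromosome 11, had 2342, 15042, 1393 and 1725. Together they took 97.9% to 99.9% of the reads of the 4 cluster spans in each library, and 6.21% of all gene reads in WT replicate 2 against 0.392% to 0.873% in the other 3 libraries. Mir196a-2, in the Hoxc cluster, had 21, 13, 3 and 6 reads. No exon of a Hox protein-coding gene covers these microRNA genes. They are shown because they dominate the cluster reads and because miR-196 is known to repress Hox mRNAs; the mature sequences are from RefSeq (GRCm38.p6), with bases 2 to 8, the seed, in capitals.
miR-10a-5p: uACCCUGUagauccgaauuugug
miR-10b-5p: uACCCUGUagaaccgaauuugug
miR-196a-5p: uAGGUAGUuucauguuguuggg

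The first pair share a seed and differ at 1 base, so reads may be exchanged between them. These mature forms are 22 to 23 bases long, and whether these reads are footprints was not tested. The long noncoding genes Hotair and Haglr, known regulators at Hox clusters, had 0 reads.

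Genes that act with or upon the Hox genes were also measured, from lists of cofactors and chromatin complexes. None of these genes passed the adjusted test. Of the 9 Hox cofactors, 5 could be tested, 1 with a positive and 4 with a negative log2 difference (median -0.41). Pknox1 had 9, 11, 16 and 4 reads, Pbx2 had 10, 9, 9 and 1, and Meis1 had 3, 5, 6 and 4. Pbx2 had the greatest difference, -1.40 ± 0.59 (limma, adjusted p = 0.675). Of the 22 Polycomb subunits, 18 were tested, 9 in each direction (median 0.04). Rbbp7 (45, 81, 200 and 208 reads), Rbbp4 (75, 87, 153 and 182) and Phc2 (55, 38, 31 and 47) had the most reads, and the methyltransferase Ezh2 had 11, 14, 25 and 20. Its partners Eed (10, 6, 39 and 27 reads) and Suz12 (9, 6, 37 and 22) had higher values in both KO-labelled libraries, with adjusted p of 0.660 and 0.672 in limma; they were the 2 of 18 subunits under an unadjusted p of 0.05, where 7.32% of all genes and 5.97% of protein-coding genes were.

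Of the 12 Trithorax and demethylase genes, 5 had a positive and 7 a negative log2 difference (median -0.19). Kmt2d had 282, 91, 95 and 115 reads, Kmt2a, which maintains Hox expression, had 109, 38, 95 and 62, and Kdm6b had 82, 28, 42 and 42. The upstream regulators of the Cdx, Evx and retinoic acid receptor list numbered 10, of which 4 were tested, all with negative differences (median -0.93): Rara (70, 18, 25 and 28 reads), Rxra (46, 14, 22 and 16), Rarg (17, 13, 15 and 21) and Rxrb. WT replicate 1 held the highest level of each of these 4. The summed RPKM of the list was 58.3 and 26.0 in WT against 16.6 and 23.9 in the KO-labelled libraries. A median without WT replicate 1 was not computed, and 50.0% of all genes tested were below 0. Cdx1, Cdx2, Cdx4 and Evx1 were at 0.

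Genes of limb identity had few reads. Pitx1 and Tbx4, which mark the hind limb, had 2, 11, 1 and 1 and 2, 1, 2 and 3 reads, at or below the floor of 3 reads in every library but WT replicate 2 for Pitx1, and Tbx5, which marks the forelimb, had 0, so the labelled origin could not be checked at this depth. Prrx1, a gene of limb mesenchyme, had 140, 84, 259 and 212 reads, and Meox2 had 7, 9, 17 and 13. Over the 15 genes of limb identity and limb muscle patterning, 9 were tested, 2 with a positive and 7 with a negative log2 difference (median -0.81). Lbx1, which guides muscle precursors into the limb, had 8 and 2 reads in WT and 0 in both KO-labelled libraries, and passed the filter on low values through WT alone.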

How the data were processed

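Ribo-seq libraries of 2 WT and 2 KO primary myoblast samples were analysed, grouped by their labels. The submitters' processing notes name TopHat2, HTSeq and mm10, and the methods of the study give Ensembl gene models; how multiple matches and strand were handled is not given in the sources used here. The values deposited by the authors are RPKM of 55573 genes in 1 table, with gene length and class. RPKM was multiplied by gene length and divided by the smallest non-zero product of each library, which gave whole numbers within 0.01 for 100% of values; the implied denominators were 602863, 471136, 906990 and 807705. Depth was 642429 to 704006 gene reads per library.

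Log2(RPKM + 1) was tested with limma 3.58.1 in R 4.3.3 (lmFit, eBayes with a mean-variance trend, two-sided, Benjamini-Hochberg) over all genes whose mean RPKM reached 1; such differences understate the change of low genes. The script was checked on simulated data. Coding sequences, overlaps and 30-base stretches came from GENCODE vM21, where all 39 members matched in position and exon length; 99.5% of protein-coding genes had a coding sequence there. Pandas 2.3.3 and SciPy 1.17.1 gave sums and intervals.

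Members, gene lists and tests were chosen with earlier results of these data known. Text names Eif5a, the Hox members by read count, the 3 genes with most reads in each list, Pitx1, Tbx4, Tbx5, Ezh2, Kmt2a, Meis1, and cluster noncoding genes with at least 20 reads; Eed, Suz12, Lbx1, Rxrb, Cdx1, Cdx2, Cdx4, Evx1, Gm28230, Hotair, Haglr and the marker genes at 0 were added after their values were seen. A few genes and sequences that this rule would name are not reported here. Alternatives were another pseudocount, filters, scalings, voom, GC and length correction, a replicate block and each library left out. The overlap of cluster and paralog group sums under other scalings, and groups 9 and 10 with a library left out, were chosen after seeing the data.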

Additional observations from a re-analysis of the deposited data

How the results depend on the processing

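No Hox gene passed the adjusted threshold under any alternative, with a smallest adjusted p of 0.289 (limma, scaling to all gene reads); at a mean RPKM of at least 5 no member was left to test. At an unadjusted p under 0.05, where the count was 0, there were 2 members with a pseudocount of 0.1, 1 each with scaling to all reads, voom, protein-coding genes alone, and the GC and length trend removed without or with the replicate block, and 0 to 3 with a library left out. Over all genes the adjusted count of 12 was 0 with a pseudocount of 0.1, no filter, the filter at 5, scaling to all reads, protein-coding genes alone, the GC and length trend removed, or any library left out (0 to 0), was 79 with voom, and was 13 with scaling to protein-coding reads. Non-overlapping members numbered 4, and 5 to 7 with a library left out (1 against 2 overlaps less often by construction), 7 of them without WT replicate 1.

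The replicate numbers of the labels were not taken as pairs: deviations of same-numbered libraries correlated at 0.057 over all tested genes, with only 2 pairs. With the replicate block the count over all genes was 0, and 5 when the GC and length trend was also removed; no call on a Hox gene changed.

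The median log2 difference of the tested members, 0.06, was 0.91 with a pseudocount of 0.1 and -0.18 with no filter, and ranged from -0.66 to 0.067 with a library left out. The summed Hox difference of -0.35 was 0.20 with scaling to all reads and ranged from -0.74 to 0.17 with a library left out. By cluster, scaling to all reads gave -0.31 for Hoxa, 0.84 for Hoxb, 0.44 for Hoxc and -0.40 for Hoxd; leaving out a library gave -1.39 to 0.068 for Hoxa, -0.0059 to 0.48 for Hoxb, -0.51 to 0.44 for Hoxc and -1.32 to -0.45 for Hoxd. That scaling moved the median of all genes by 0.50 on the log2 scale, and scaling to protein-coding reads by -0.09. Directions turned for Eif5a (-0.12 without WT replicate 1, 0.76 at most with another library left out and 0.92 over all alternatives), Hoxb6 (-0.071 without KO-labelled replicate 2, at most 2.16 and 2.28 likewise), Hoxc6 (-0.93 without WT replicate 2, at most 1.43 and 1.45) and Hoxd9 (0.19 with the GC and length trend removed, without or with the block); the cause was not tested. Hoxa10 (1.00 to 1.78), Hoxc10 (0.41 to 1.23), Hoxa7 (-1.73 to -0.74) and Hoxd8 (-1.27 to -0.44) kept their direction under each of the 13 alternatives. So did Hoxc8 (0.15 to 1.06), whose groups overlapped in RPKM. A library left out leaves 1 against 2, where limma takes the lone library to vary like the rest. Depth limits every member: 10 reads at most.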

Other observations

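Homeobox genes outside the Hox clusters were nearly silent. Of 17 such genes, developmental regulators of other organs and regions, 10 had 0 reads in every library, among them Pdx1 of the pancreas, Nkx2-5 of the heart and Otx1 of the forebrain. Irx3 was the only one of the 17 with a mean RPKM of at least 1, with 0, 6, 1 and 5 reads in WT 1, WT 2, KO 1 and KO 2 (group and replicate), and its groups overlapped. Emx2 had 0, 0, 2 and 1 reads and Gsc had 0, 0, 2 and 0, at or below the floor of 3 reads in each library.

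Few reads lay on the other noncoding genes of the clusters. Mir615, in the Hoxc cluster, had 5, 8, 1 and 2 reads, and Mir196a-1, which lies in the Hoxb cluster, had 0, 1, 1 and 1. The antisense gene Hoxa11os had 0, 1, 0 and 2 reads, beside 1 read on Hoxa11. Gm29430, a long noncoding gene in the Hoxa cluster, had 6 reads, all in WT replicate 2. These genes were picked after their values were seen, and no test was applied to them.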
